A study of Mus musculus with 15 samples.

Results

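The genes described here are 10 imprinted genes that act on growth: H19, Igf2, Cdkn1c, Dlk1, Meg3, Peg3, Plagl1, Mest, Grb10 and Phlda2. They were chosen by name, as a list, and were found by matching gene symbols in the deposited expression tables of mouse uterine epithelium, where 8 of the 10 were listed among 28269 genes in all. RNA was sequenced from 15 libraries in 5 groups of 3. Wild-type luminal epithelium (LE) and wild-type glandular epithelium (GE) formed a pair of groups, labelled Ctrl-LE and Ctrl-GE. The other groups came from mice labelled as overexpressing Notch1, the gene of a cell-surface receptor, and were titled E-OEX-LE, E-OEX-GE and U-OEx-LE. All samples carried the time label day 4. The labels do not say what E-OEX and U-OEx stand for, what drives the Notch1 transgene, which strain or age the mice had, or whether replicates came from separate animals, so p-values measure the spread between these libraries, which may be technical. Values are scaled read counts: the number of reads of a gene divided by a factor particular to each library.

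Imprinted genes are transcribed mainly or only from the copy inherited from a given parent, under marks of DNA methylation laid down in the germ line. In the mouse, H19, Cdkn1c, Grb10, Phlda2 and Meg3 are expressed from the maternal copy and Igf2, Dlk1, Peg3, Plagl1 and Mest from the paternal copy, and many maternally expressed members restrain growth of the embryo and placenta while paternally expressed members such as Igf2 promote it. In the uterus, the luminal epithelium meets the embryo at implantation and the glands secrete factors that it needs. The libraries measured total transcript level and held no information on the parental copy.

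Which genes a table lists bears on every value below. There were 6414 genes in the wild-type tables and 4903 in those of E-OEX, and both held genes whose GE and LE means differed by a log2 ratio of at least 1 in either direction, apart from 1 E-OEX gene that fell marginally short. Those of U-OEx had 27946 genes with no such selection. H19, Cdkn1c and Mest were listed in all tables, Igf2 in the wild-type and E-OEX tables, Plagl1 and Phlda2 in the E-OEX and U-OEx tables, and Peg3 and Grb10 in the U-OEx tables. Dlk1 and Meg3 were not analysed here. Notch1 itself was listed in the U-OEx tables alone, so the overexpression could not be checked against wild type. A listed member therefore already differed between GE and LE, and the GE against LE tests describe size and direction.

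The genes listed drew 1980800 to 4797424 reads in a wild-type or E-OEX library, and 13541644 to 14981505 in each library of U-OEx. The labelled epithelia were checked against marker genes listed in every table. The summed level of 5 of 7 luminal markers was 29800 to 134339 scaled reads in LE libraries and 818 to 8690 in GE libraries. In U-OEx LE most of that sum was Ltf (105551 ± 37163 scaled reads), the gene of the secreted protein lactotransferrin, whose wild-type LE and GE libraries overlapped (limma adjusted p = 0.18). Calb1 was 238 ± 25.2 in U-OEx LE, 32861 ± 13823 in wild-type LE and 369.7 ± 181 in wild-type GE, and Lpar3 was 266 ± 46.9, 6812 ± 979 and 223 ± 43.4, so these 2 luminal markers were near the wild-type GE level in U-OEx LE. Wnt7a, at 1911 ± 788 in U-OEx LE and 7.03 ± 2.94 in wild-type GE, was not. Without Ltf, a choice made after its values were seen, the other 4 markers summed to 31498 to 57877 in wild-type LE, 13135 to 17640.2 in E-OEX LE, 5398 to 7951 in U-OEx LE and 402 to 1876 in GE. The summed level of 7 of 9 glandular markers was 23799 to 32026 in wild-type GE, 5886 to 9168 in E-OEX GE and 49.7 to 1441 in LE. Calca and Spink1 were at 0 in every E-OEX LE library, and Spink1 and Ttr in every U-OEx LE library. The GE libraries also carried markers of other cells. For 10 of 12 stromal and fibroblast markers the sum was 38046 to 108195 in GE and 504 to 22664 in LE, and for 7 of 8 endothelial markers it was 3091 to 10997 in GE and 33.5 to 448 in LE, with Emcn at 0 in all E-OEX LE libraries. For 6 of 7 pericyte markers it was 3258 to 9654 in GE and 13.5 to 353 in LE, with Abcc9 and Rgs5 at 0 in all E-OEX LE libraries. Notch3 was the remaining pericyte marker and was not listed for E-OEX. With it, the sum was 3929 to 5725 in wild-type GE, 331 to 766 in wild-type LE and 1382 to 2504 in U-OEx LE. Without it, the sum in U-OEx LE was 40.4 to 99.9. For 7 of 8 smooth muscle markers it was 3117 to 5427 in wild-type GE, 15572 to 19859.5 in E-OEX GE and 104 to 680.3 in LE, with Actg2 at 0 in all wild-type LE libraries. In such bulk samples, fewer cells of a type and less RNA per cell cannot be told apart. Of 8 leukocyte markers and 6 blastocyst markers, 1 each was listed in every table, Cd68 and Elf5. Cd68 was 178 to 462 scaled reads in LE and 44.99 to 98.9 in GE. Of the other leukocyte markers, Lyz2 (2958 ± 858 against 563 ± 354), Cd74 (615 ± 75.1 against 222 ± 21.5) and Adgre1 (58.0 ± 16.6 against 21.2 ± 15.1) were listed for wild type and were higher in GE than in LE (limma adjusted p = 0.00137, 0.000585 and 0.0357), the reverse of Cd68. In E-OEX the other one listed, Itgam, was lower in GE (19.9 ± 4.59 against 94.6 ± 65.2, limma adjusted p = 0.0113). Elf5 was 92.2 to 465 in LE and 12.98 to 109 in GE.

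Positions are those of GENCODE M21 on GRCm38, the build named in the submitters' processing notes. H19 (chr7:142575529-142578143, minus strand) and Igf2 (chr7:142650766-142666816, minus strand) are neighbours, as are Cdkn1c (chr7:143458339-143461050, minus strand) and Phlda2 (chr7:143501545-143503150, minus strand). Mest lies at chr6:30723547-30748465 on the plus strand, Plagl1 at chr10:13060504-13131694 on the plus strand, Grb10 at chr11:11930508-12038683 on the minus strand and Peg3 at chr7:6703892-6730431 on the minus strand.

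H19, Mest and Igf2 were the 3 members whose level was low in LE and higher in GE in both genotypes, and each also hosts a microRNA. The mature sequences are shown because reads of the host gene stand here for a locus with a second, small RNA product, which these libraries did not measure. They are RefSeq entries on GRCm38.p6, written 5′ to 3′ with the seed, bases 2 to 8, in capitals.
miR-675-5p, in H19: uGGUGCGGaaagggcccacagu
miR-675-3p, in H19: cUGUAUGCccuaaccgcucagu
miR-335-5p, in Mest: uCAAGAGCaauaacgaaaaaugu
miR-335-3p, in Mest: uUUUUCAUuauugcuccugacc
miR-483-5p, in Igf2: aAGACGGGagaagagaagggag
miR-483-3p, in Igf2: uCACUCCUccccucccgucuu
No 2 of the 6 shared a seed.

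RefSeq promoter windows were found for 8 of the 10 members. The 250 bases before a start of Mest (chr6:30737800-30738049, plus strand, GRCm38.p6) are shown because Mest was listed in all 5 groups, and this window was picked from those of Mest because it holds matches. Searched on both strands were 4 motifs. TGGGAA is the core bound by RBPJ, the DNA-binding partner of Notch. CACGTG, the E-box, and CACGCG, the class C site, are bound by repressors of the Hes and Hey families, which are Notch targets. TGCCGC is bound by Zfp57, a protein that keeps imprints in place. The matches do not overlap each other, and they are in capitals, a match on the opposite strand appearing as its reverse complement.
Mest promoter: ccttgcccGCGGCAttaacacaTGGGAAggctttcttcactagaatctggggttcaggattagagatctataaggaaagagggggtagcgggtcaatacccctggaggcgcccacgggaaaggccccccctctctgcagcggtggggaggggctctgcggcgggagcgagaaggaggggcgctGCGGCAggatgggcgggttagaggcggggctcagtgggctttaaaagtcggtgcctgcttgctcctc
The window held 1 match to TGGGAA, 2 to TGCCGC and 0 to CACGTG and CACGCG. Another window of Mest (chr6:30733256-30733505, plus strand) held none of the 4, and the third overlaps the one shown. TGGGAA was also in windows of Igf2 and Meg3, TGCCGC in windows of Meg3 and Plagl1 and CACGTG in that of Plagl1, and the windows of Dlk1, Peg3, Grb10 and Phlda2 held none of the 4. Among 32851 promoter windows of the same length, 21.6% held TGGGAA, 8.68% TGCCGC, 6.02% CACGTG and 7.62% CACGCG. A match describes letters and not binding.

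Cdkn1c encodes p57, an inhibitor of cyclin-dependent kinases that holds cells out of the division cycle. It was the member with the largest difference between genotypes. Its scaled read counts in replicates 1, 2 and 3 were 954, 4027 and 2518 in LE of the wild type. They were 94.0, 90.8 and 119 in E-OEX LE and 40.4, 28.4 and 41.3 in U-OEx LE. All 6 Notch1-overexpressing LE libraries lay below the lowest wild-type LE library, and the 3 U-OEx libraries lay below the 3 E-OEX libraries. Groups that did not overlap were common: 29.9% of genes in E-OEX LE against wild-type LE, 63.8% in U-OEx LE against wild-type LE and 38.2% in U-OEx LE against E-OEX LE. The means were 2499.7 ± 1537 (SD, n = 3), 101 ± 15.3 and 36.7 ± 7.19.

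Tests used limma on log2(value + 1) with Benjamini-Hochberg adjustment over every gene tested, were two-sided, and called an adjusted p under 0.05. Comparisons between genotypes used the reads of shared genes rescaled together. In E-OEX LE against wild-type LE, Cdkn1c fell by 4.56 on the log2 scale (SE 0.53, limma adjusted p = 0.00157), with rescaled means 26.9-fold lower. It was the only one of 3 members tested to be called, where 10.7% of 2600 genes were called, 5.12% as higher and 5.54% as lower; 15 genes had a lower difference. In U-OEx LE against wild-type LE, Cdkn1c fell by 5.86 (SE 0.47, limma adjusted p = 3.50e-05), with rescaled means 67.1-fold lower, and was again the only one of 3 members called. The background there was 56.9% of 5949 genes called, 29.1% as higher and 27.8% as lower, and 115 genes had a lower difference than Cdkn1c. Because both comparisons use the same 3 wild-type LE libraries, they are not independent of each other. All genes compared had also been selected for a GE-to-LE difference in wild type, measured with these same LE libraries. Cdkn1c was listed there with LE above GE, so selection favoured a high wild-type LE level. The calls and shares thus describe size and direction among selected genes. Leaving out single libraries kept both calls, with log2 differences from -5.09 to -4.18 in E-OEX LE and from -6.38 to -5.44 in U-OEx LE.

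**Figure D1:**
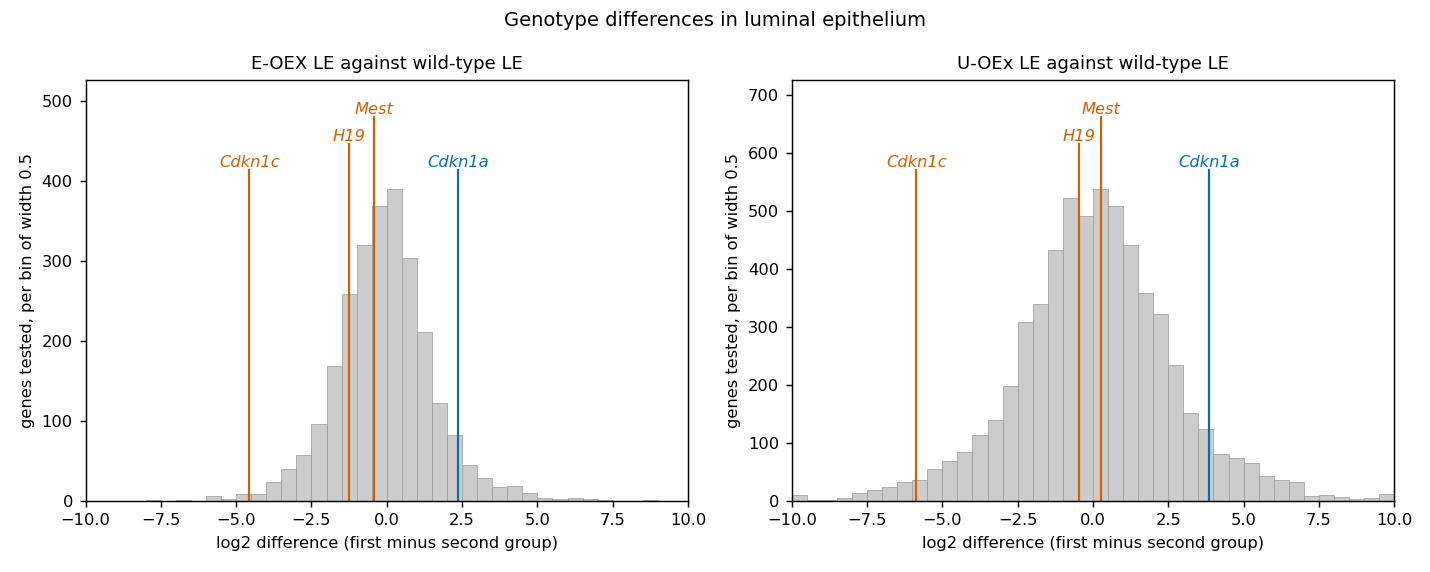
Histograms of the log2 difference of all genes tested in E-OEX LE against wild-type LE (left) and U-OEx LE against wild-type LE (right), in bins 0.5 wide, with the end bins also holding values beyond the axis. Vertical lines mark Cdkn1c, H19 and Mest (orange) and Cdkn1a (blue); Cdkn1c lies at -4.56 and -5.86, in the left tail of both, and H19 and Mest lie near the middle.

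Markers of other cells moved with Cdkn1c among the wild-type LE libraries. The 10 stromal markers summed to 504, 8104 and 2644 scaled reads in replicates 1, 2 and 3, and 3 of 4 mesothelial markers (Lrrn4, Msln and Upk3b) to 110, 3274 and 1023, the same order as Cdkn1c. The endothelial (79.8, 448 and 173), pericyte and glandular sums and Cd68 kept that order, and the smooth muscle sum and Elf5 did not. The luminal sum ran in reverse, at 60296, 31915 and 49711. The part of other cells in the level of Cdkn1c was not tested. In U-OEx LE the stromal sum was 8861 to 22664, most of it Postn (12696 ± 7511 against 12.04 ± 10.7 in wild-type LE), and 7 of the 10 markers had a lower mean than in wild-type LE, among them Col1a1 (126 ± 65.6 against 741 ± 851) and Col3a1 (146 ± 136 against 1002 ± 1100). Without Postn, a choice made after its values were seen, the other 9 summed to 504, 8084 and 2629 in wild-type LE. The same 9 summed to 731 to 3361 in E-OEX LE and 1797 to 2834 in U-OEx LE. The mesothelial sums were 234 to 719 in E-OEX LE and 95.6, 143 and 877 in U-OEx LE, against 110 to 3274 in wild-type LE. For these 3 mesothelial markers the sums in GE were at most 9.48. The remaining one, Wt1, was not listed for wild type and went the other way. It was 384 ± 85.7 in E-OEX GE and 41.8 ± 35.5 in E-OEX LE.

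U-OEx LE had less Cdkn1c than E-OEX LE, a change of -1.58 on the log2 scale (SE 0.41, limma adjusted p = 0.0351), with rescaled means 3.04-fold lower. It was the only one of 5 members tested to be called, where 15% of 4275 genes were called, 6.97% as higher and 8.05% as lower. This call was lost without E-OEX LE replicate 2 or 3 and without U-OEx LE replicate 1, 2 or 3 (adjusted p from 0.0691 to 0.118). It was kept without E-OEX LE replicate 1.

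Between the epithelia, Cdkn1c ran in opposite directions in wild-type and E-OEX tissue. In wild-type GE its values were 148, 191 and 118, all below wild-type LE. In E-OEX GE they were 237, 458 and 354, all above E-OEX LE. Both GE groups fell in the order of their stromal sums (54872, 108195 and 38046 in wild type, 88798, 98373 and 94596 in E-OEX). Cd68 and Elf5 kept that order in both, the glandular sum in E-OEX GE only. The endothelial, pericyte, smooth muscle and mesothelial sums kept it in neither. In E-OEX LE and U-OEx LE, Cdkn1c did not follow the stromal sum. The part of stromal cells in these values was not tested. Relative to LE, GE differed by -3.83 in wild type (SE 0.51, limma adjusted p = 0.000451) and by 1.74 in E-OEX (SE 0.40, limma adjusted p = 0.00511). The difference of these differences was 5.56 (SE 0.67, limma adjusted p = 0.000859), and Cdkn1c was the only one of 4 members called in that test, where 10.7% of 2933 genes were called, 5.83% as positive and 4.91% as negative; 13 genes had a more positive value. The interaction kept its call under all 20 alternatives, from 4.75 to 6.14. Every gene in this test had been selected for a GE-to-LE difference in both genotypes. A gene listed with opposite directions thus has a large interaction by selection, and the test describes its size and direction.

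The difference between E-OEX GE and LE depended on the scaling. The median difference of all 4903 genes of the E-OEX tables was 1.75, so Cdkn1c stood at the middle of its table. Rescaling moved that median to 1.07 with TMM and 0.43 with quantile normalization. The difference of Cdkn1c was then 1.01 (limma adjusted p = 0.0381) and 0.75 (limma adjusted p = 0.134), and it was not called by edgeR (1.01, adjusted p = 0.0602) or DESeq2 (0.76, adjusted p = 0.0729). Calls over all genes moved alike, from 3017 higher and 1474 lower to 1490 higher and 1734 lower after quantile normalization.

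E-OEX GE and wild-type GE did not overlap for Cdkn1c, as was the case for 40.5% of 2851 genes, and the difference of 0.71 (SE 0.31, limma adjusted p = 0.128) did not pass. No member of 4 was called there by limma, edgeR or DESeq2 (1 had an unadjusted p under 0.05 in each), where 23.5% of genes were (277 higher, 9.72%, and 393 lower, 13.8%). On the deposited scale, which gave 565 higher and 224 lower calls, the difference was 1.17 (limma adjusted p = 0.0257), and without E-OEX GE replicate 1 it was 0.90 (limma adjusted p = 0.046). The levels of Cdkn1c thus ordered as wild-type LE, E-OEX GE, wild-type GE, E-OEX LE and U-OEx LE, with no overlap between neighbouring groups other than between wild-type GE (lowest library 118) and E-OEX LE (highest library 119), and levels set across tables rest on their separate scaling. A gene on the opposite strand of Cdkn1c, Gm44732, was at 0 in all 3 U-OEx libraries.

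**Figure D2:**
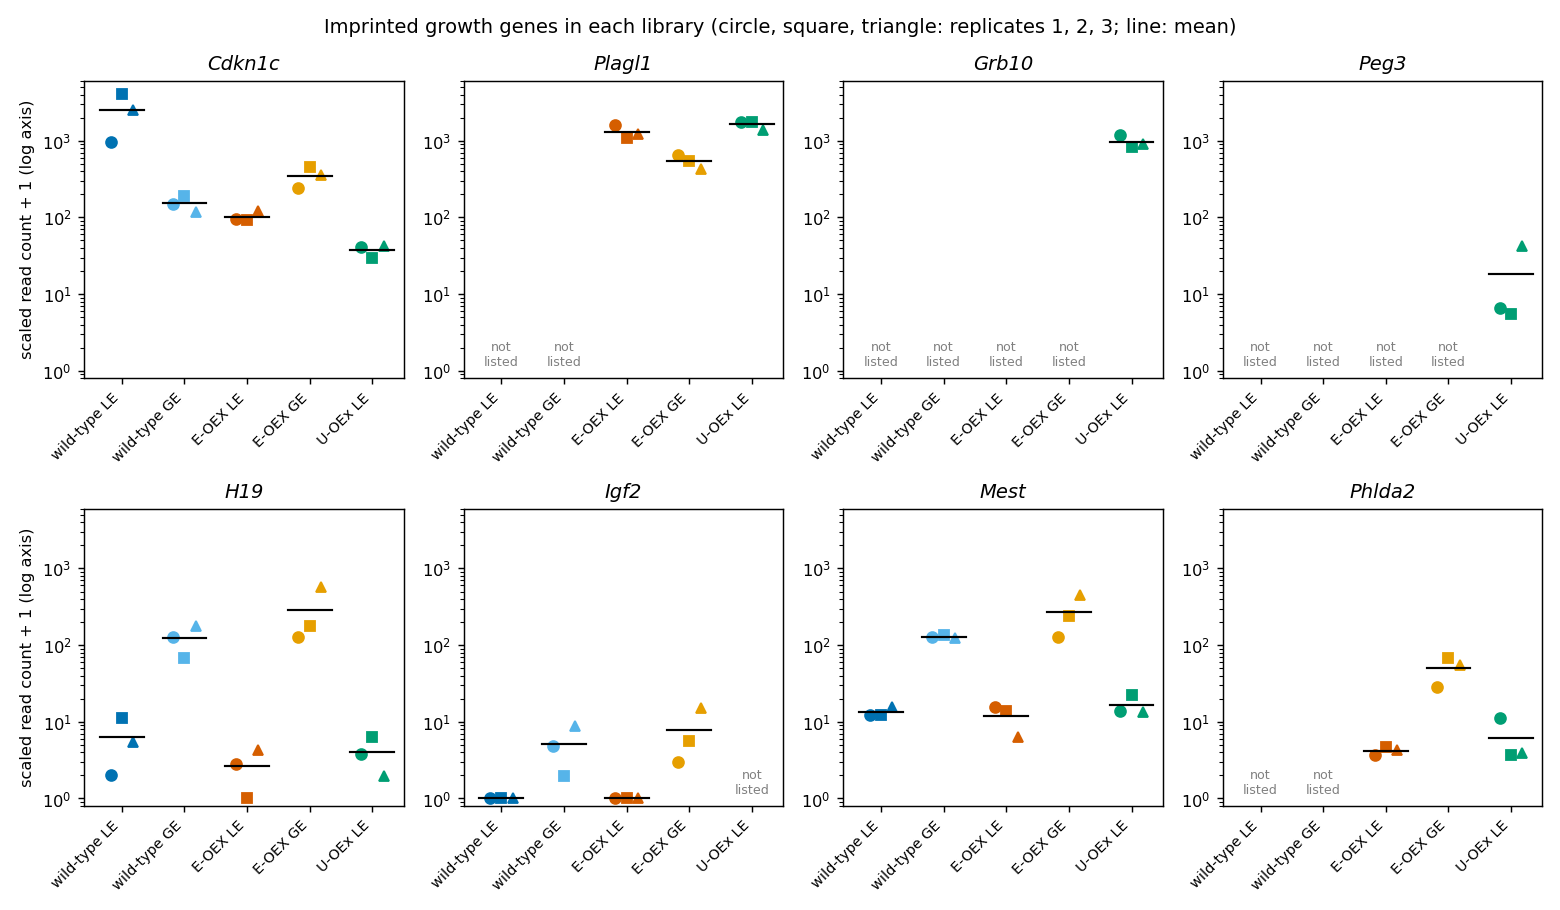
Scaled read count + 1 (log axis) of the 8 listed members in each library, by group; circles, squares and triangles are replicates 1, 2 and 3 and lines are means. Cdkn1c is highest in the 3 wild-type LE libraries (954 to 4027), H19, Igf2, Mest and Phlda2 are higher in GE than in LE wherever both are listed, and Plagl1 is lower in E-OEX GE than in LE.

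The close relatives of Cdkn1c encode p21 (Cdkn1a) and p27 (Cdkn1b), which also inhibit cyclin-dependent kinases. In wild-type LE, Cdkn1a was 14.5, 58.4 and 33.5 scaled reads, the same order of libraries as for Cdkn1c. In E-OEX LE it was 290.3, 233 and 88.5, and in U-OEx LE 304, 666 and 498. Each overexpressing LE library lay above all wild-type LE libraries, the reverse of Cdkn1c. Cdkn1a rose in U-OEx LE by 3.86 (SE 0.50, limma adjusted p = 0.000372); in E-OEX LE the difference was 2.36 (SE 0.66, limma adjusted p = 0.0504), just outside the threshold. That difference was called by DESeq2 (adjusted p = 0.00444), with the replicate block (limma adjusted p = 0.0477), with the filter at a mean of at least 10 (limma adjusted p = 0.0446) and without E-OEX LE replicate 3 (limma adjusted p = 0.0215). It was not called by edgeR (adjusted p = 0.0534) or without any other single library (limma adjusted p up to 0.181). Its level in GE was also higher in E-OEX than in wild type (892 ± 234 against 182 ± 52.8 on the deposited scale, SD, n = 3). On rescaled reads the means were 788 and 218, with a log2 difference of 1.83 (limma adjusted p = 0.00273). GE exceeded LE in both genotypes, by 2.49 and 2.26 (limma adjusted p = 0.00314 and 0.00461; by DESeq2 the second was not called, adjusted p = 0.0583). Cdkn1b was listed in U-OEx LE only, at 1308 ± 331.

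Plagl1, a zinc-finger transcription factor that restrains cell division and acts on other imprinted genes, was among the highest members. It was 1597, 1095 and 1237 scaled reads in E-OEX LE, 649, 551 and 423 in E-OEX GE, and 1738, 1762 and 1380 in U-OEx LE. The GE values were all below the LE values. Plagl1 fell in E-OEX GE against LE by 1.28 (SE 0.34, limma adjusted p = 0.00892), with means 2.42-fold lower, while the median of all genes was higher in GE. U-OEx LE and E-OEX LE overlapped, with a difference of 0.19 (SE 0.29, limma adjusted p = 0.695). It was not listed for wild type.

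Grb10, an adaptor protein that dampens insulin and IGF receptor signalling, was 1185, 815 and 910.5 scaled reads in U-OEx LE, the group in which it was listed. Peg3, a large zinc-finger protein, was 5.51, 4.44 and 41.3 there. Replicate 3 stood apart from the other libraries for Peg3, and it also had the highest mesothelial sum, 877 against 95.6 and 143. For markers listed in every table, it was also highest for the endothelial sum (233 against 211 and 148). The same held for the pericyte sum (99.9 against 40.4 and 44.4), Cd68 (462 against 334 and 293) and the stromal sum without Postn (2834 against 1797 and 1832). It was lowest for the full stromal and smooth muscle sums, and for the pericyte sum with Notch3. The part of these cells in the Peg3 value was not tested.

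H19 is a non-coding RNA, and Igf2 encodes an insulin-like growth factor that promotes growth; they share enhancers at a joint imprinted locus. H19 was 1.04, 10.2 and 4.47 scaled reads in wild-type LE and 126, 67.3 and 177 in wild-type GE. It was 1.83, 0 and 3.24 in E-OEX LE and 125, 176 and 569 in E-OEX GE, and 2.76, 5.33 and 0.96 in U-OEx LE. Every GE library exceeded every LE library, and the wild-type LE libraries fell in the order of their stromal sums, whose part was not tested. GE was higher by 4.53 in wild type (SE 0.70, limma adjusted p = 0.000857), with means 23.5-fold higher, and by 6.67 in E-OEX (SE 0.77, limma adjusted p = 0.000235), with means 172-fold higher. The E-OEX LE level rests on 5 reads in 3 libraries.

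All 4 members listed in wild type and all 6 listed in E-OEX were called in the GE against LE tests, where selection of the tables left 97.0% of wild-type genes called (56.6% higher, 40.5% lower) and 91.6% of E-OEX genes (61.5% higher, 30.1% lower), so these counts say little of the members. Their groups did not overlap either, as for 95.9% and 89.9% of genes. The list medians were 2.70 and 3.08 against 1.36 and 1.75 over all genes. The 1.36 of wild type moved to 1.13 with TMM and 0.77 with quantile normalization, and each called member kept its direction under these.

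Between genotypes H19 did not pass any test. The difference was -1.24 in E-OEX LE (SE 0.87, limma adjusted p = 0.399), -0.48 in U-OEx LE (SE 0.75, limma adjusted p = 0.609) and 0.55 in E-OEX GE (SE 0.53, limma adjusted p = 0.512) against wild type, and the groups overlapped. Between U-OEx LE and E-OEX LE it was 0.63 (SE 0.78, limma adjusted p = 0.618). In the interaction test the GE-to-LE difference of H19 was larger in E-OEX by 2.15 (SE 1.12, limma adjusted p = 0.265), which also did not pass.

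Igf2 was at 0 in all 6 LE libraries of wild type and E-OEX. It was 3.89, 0.95 and 7.79 scaled reads in wild-type GE and 2.003, 4.60 and 14.1 in E-OEX GE, which correspond to 14 and 21 reads in all. Against a floor of 3 reads over the LE group, the GE level was at least 3.98-fold higher for wild type and, for E-OEX, at least 7.17-fold higher. The limma adjusted p was 0.00754 and 0.0043, neither of which held under quantile normalization (adjusted p = 0.0868 and 0.213), and the first did not hold with DESeq2 (adjusted p = 0.0917). The E-OEX and wild-type GE groups overlapped, with a difference of 0.16 (SE 0.77, limma adjusted p = 0.916), and the interaction was 0.53 (limma adjusted p = 0.779).

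In wild-type GE, and again in E-OEX GE, the 3 libraries fell in the same order for Igf2 as for H19. Endothelial markers did so too: their sum was 3955, 3091 and 5340 in wild-type GE and 4187, 5454 and 10997 in E-OEX GE. The pericyte sum kept that order in E-OEX GE, at 3594, 7359 and 9654, and not in wild-type GE, at 3258, 3796 and 4694. The part of vessel cells in the levels of H19 and Igf2 was not tested.

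Mest, a protein of the alpha/beta-hydrolase fold known for its expression in mesoderm and fat, was 11.4, 11.3 and 14.5 scaled reads in wild-type LE and 127, 133 and 123 in wild-type GE. It was 14.6, 12.7 and 5.40 in E-OEX LE, 126, 238 and 445 in E-OEX GE, and 12.9, 21.3 and 12.5 in U-OEx LE. The wild-type GE libraries differed little (128 ± 4.93, SD, n = 3), whereas E-OEX GE spread from the wild-type level upwards (269.7 ± 162). GE exceeded LE by 3.27 in wild type (SE 0.32, limma adjusted p = 0.000153) and by 4.42 in E-OEX (SE 0.61, limma adjusted p = 0.000539). Means were 10.3-fold and 24.7-fold higher.

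Mest was not called between genotypes. The difference was -0.42 in E-OEX LE (limma adjusted p = 0.734), 0.25 in U-OEx LE (limma adjusted p = 0.663) and 0.43 in E-OEX GE (limma adjusted p = 0.473) against wild type, and 1.15 in the interaction (limma adjusted p = 0.385). Between U-OEx LE and E-OEX LE it was 0.42 (limma adjusted p = 0.662). Its order over the E-OEX GE libraries was that of the endothelial and pericyte sums. In wild-type GE its order was the reverse of that of the endothelial sum. There, replicates 1, 2 and 3 had endothelial sums of 3955, 3091 and 5340, and Mest was 127, 133 and 123. The part of vessel cells in its level was not tested. Mest overlaps Copg2 on the opposite strand, which stood at 577 ± 114 scaled reads in U-OEx LE; whether counting used strand is not given in the sources used here, so reads of the overlap cannot be assigned.

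**Figure D3:**
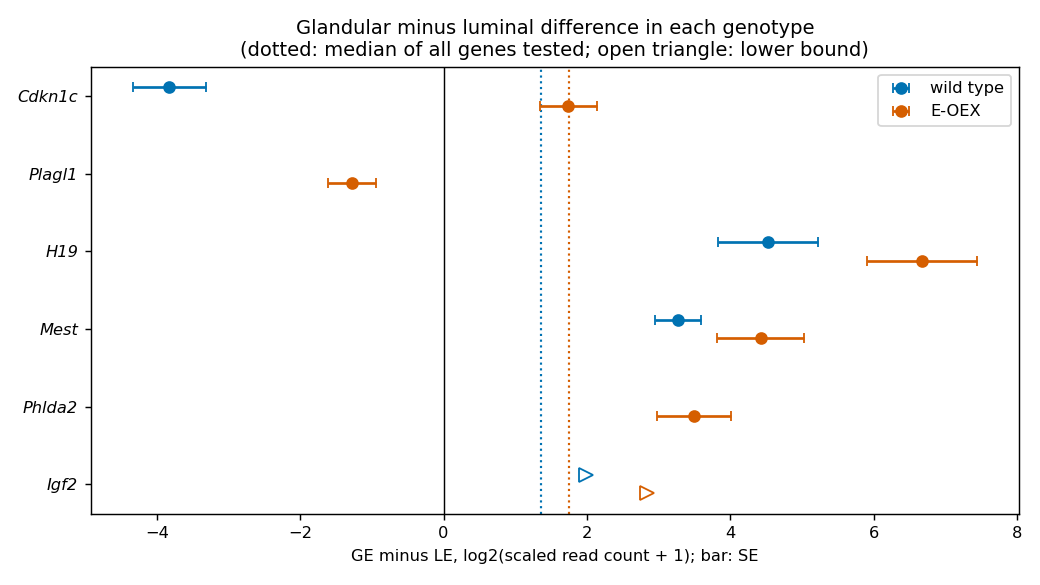
Difference between GE and LE on the log2(scaled read count + 1) scale with its SE, for members listed in wild type (blue) and E-OEX (orange). Dotted lines are the medians of all genes tested (1.36 and 1.75). Open triangles are the lower bounds of Igf2 set by the LE floor, with the GE mean taken as measured. Cdkn1c lies at -3.83 in wild type and 1.74 in E-OEX, the latter on the median line, while H19 and Mest lie above the medians in both.

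**Figure D4:**
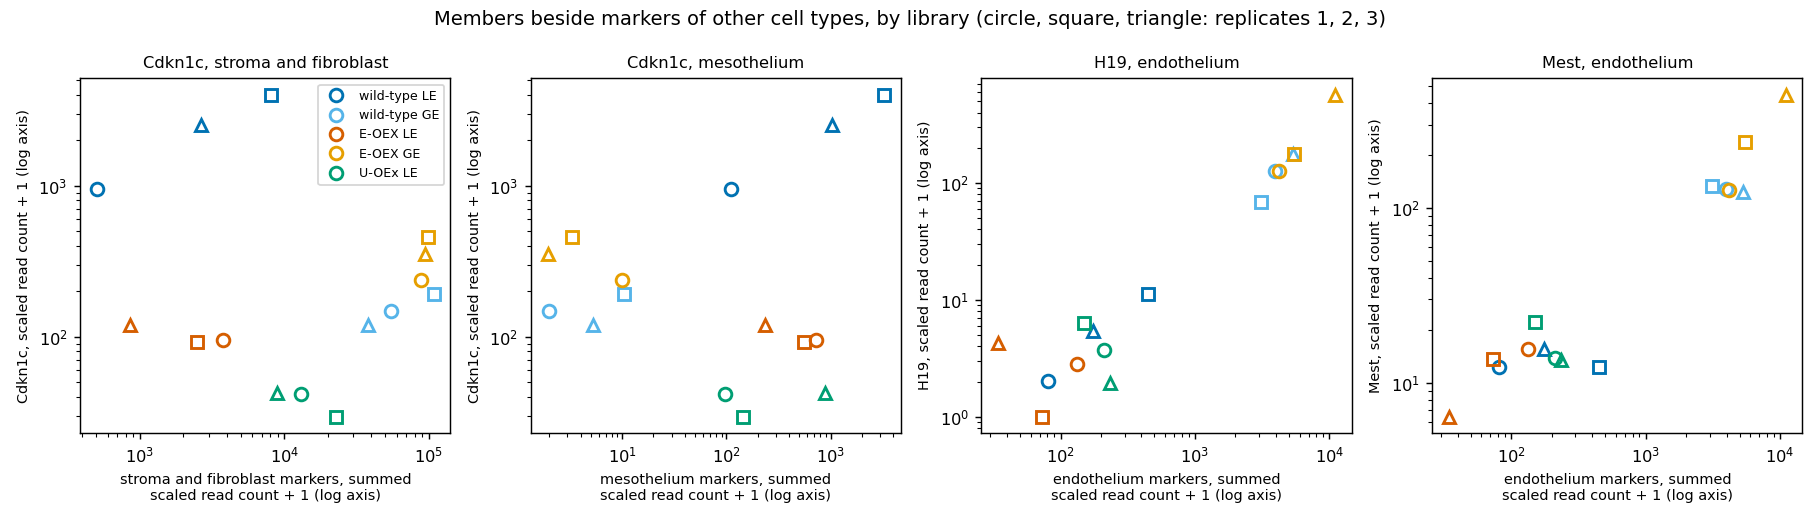
Scaled read count + 1 of Cdkn1c, H19 and Mest against the summed level of stromal, mesothelial or endothelial markers in the same library (both axes log), for all 15 libraries. The wild-type LE libraries rise together for Cdkn1c and both marker sums, the larger stromal sums of U-OEx LE are mostly Postn, and of the 15 libraries the 6 of GE are highest for H19 and Mest, where endothelial sums are 3091 or more.

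Phlda2 encodes a small pleckstrin-homology-domain protein that limits placental growth. It was 2.74, 3.63 and 3.24 scaled reads in E-OEX LE, 27.0, 67.8 and 53.4 in E-OEX GE and 10.1, 2.67 and 2.88 in U-OEx LE. GE was above LE in E-OEX without overlap, by 3.49 (SE 0.52, limma adjusted p = 0.000768), with means 15.4-fold higher. Its E-OEX LE level rests on 10 reads in 3 libraries. The LE groups overlapped (difference 0.27, limma adjusted p = 0.813). Its relative Phlda1 rose in U-OEx LE against wild-type LE by 3.90 (SE 0.36, limma adjusted p = 7.2e-05) and in E-OEX GE against wild-type GE by 1.21 (limma adjusted p = 0.00727).

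Within the U-OEx tables, which were not selected, levels can be ordered per kilobase of exon. Plagl1 was highest at 208 ± 27.4 scaled reads per kilobase and Grb10 followed at 107 ± 21.2, without overlap between them. Cdkn1c was next at 18.0 ± 3.53, below all Grb10 libraries. Phlda2 (4.66 ± 3.78), Mest (3.94 ± 1.27), Peg3 (1.28 ± 1.57) and H19 (1.23 ± 0.89) came last. Phlda2 overlapped Mest and Peg3 overlapped H19, while the lowest Mest library (3.16) was marginally above the highest of Peg3 (3.10). By the length of the longest transcript instead of all exons, the means were 309 for Plagl1, 192 for Grb10, 19.3 for Cdkn1c, 6.89 for Phlda2, 5.84 for Mest, 1.97 for Peg3 and 1.32 for H19. The order of the means was the same, and Mest (lowest library 4.69) then overlapped Peg3 (highest library 4.75). By scaled read count, Plagl1 stood at or above 93.2% of the 27946 genes and Cdkn1c at or above 52.8%. Cdkn1b (287 ± 72.7 per kilobase) and Cdkn1a (138 ± 50.9) both exceeded Cdkn1c there.

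**Figure D5:**
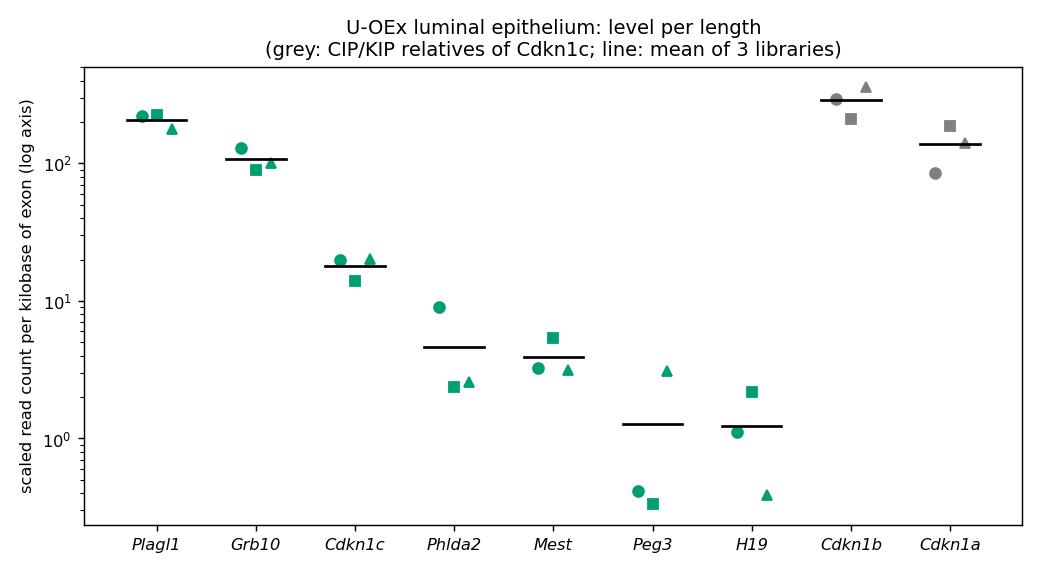
Scaled read count per kilobase of exon (log axis) in the 3 U-OEx LE libraries for the 7 listed members (green) and for Cdkn1b and Cdkn1a (grey), with means as lines. Plagl1 and Grb10 lie above 89 per kilobase in every library, Cdkn1c between 13.9 and 20.3, and the other members at 9.02 or less.

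Other imprinted genes gave a wider view. Of a list of 53, 17 were tested in wild-type GE against LE, of which 14 were higher and 2 lower, with a median of 2.16 against 1.36 over all genes. In E-OEX 10 of 15 were higher and 3 lower. The selected tables had 97.0% and 91.6% of all genes called, so these counts say little of the list. Asb4 (282 against 2.18 scaled reads) and Slc38a4, an amino acid transporter (132 against 1.74), had the largest differences in wild type, and Slc38a4 in E-OEX (156 against 0.30, the latter a single read in 3 libraries).

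In U-OEx LE against wild-type LE, 5 of 15 other imprinted genes were higher and 1 was lower, with a median of 1.41 against 0.09 over all genes. Over all genes 29.1% were called higher and 27.8% lower, 56.9% in all, a larger share than the 6 of 15. Peg10, a retrotransposon-derived gene needed in the placenta, rose from 30.3 ± 20.2 to 1974 ± 755 scaled reads (log2 difference 6.22, limma adjusted p = 0.000106). Inpp5f, a phosphoinositide phosphatase gene, fell from 2060.0 ± 288 to 405 ± 50.04 (log2 difference -2.36, limma adjusted p = 8.75e-05). In E-OEX LE against wild-type LE 1 of 6 was called, where 10.7% of all genes were: Asb4 rose from 2.18 ± 2.24 to 66.0 ± 24.1 (log2 difference 4.48, limma adjusted p = 0.0116), a call lost without E-OEX LE replicate 1 or 2 (adjusted p = 0.0624 and 0.0577). In E-OEX GE against wild-type GE, where 23.5% of all genes were called, 1 of 9 was, Slc22a3, an organic cation transporter, at 53.4 ± 19.1 against 5.48 ± 2.07 (log2 difference 2.64, limma adjusted p = 0.00356). Between U-OEx LE and E-OEX LE none of 12 was called by limma (2 had an unadjusted p under 0.05) or by edgeR, and DESeq2 called Asb4 (adjusted p = 0.0333).

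The IGF and insulin axis, through which Igf2 and Grb10 act, was followed with 21 genes. In wild-type GE against LE, where 97.0% of all genes were called by selection of the table, 6 of 7 tested were higher and 1 was lower. Irs2, an insulin receptor substrate, was 830.1 ± 190 against 18.9 ± 18.0, and Igf1, the growth factor related to Igf2, was 2526 ± 477 against 220.2 ± 207. Stc1, which inhibits a protease that cleaves IGF-binding proteins, was lower (105 ± 22.4 against 1461 ± 1230.3); it is named because it was the single gene of the list to be lower, a choice made after its values were seen. In E-OEX, where 91.6% of all genes were called, 11 of 14 were higher and 3 lower, Igf1 at 2746 ± 1444 against 75.1 ± 46.1. None of 5 was called in E-OEX LE against wild-type LE by limma, edgeR or DESeq2 (1 had an unadjusted p under 0.05 with limma and 0 with the others).

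In U-OEx LE against wild-type LE 3 of 6 genes of the axis were higher and 1 was lower, where 56.9% of all genes were called, so the count is near the background. Stc2, a relative of Stc1, rose from 75.7 ± 48.9 to 4393 ± 399 (log2 difference 6.12, limma adjusted p = 8.03e-05). Igf1 was 19.1 ± 8.79 against 220.2 ± 207 (log2 difference -2.77, limma adjusted p = 0.0409), a call lost without wild-type LE replicate 2 or 3 or any U-OEx library (adjusted p from 0.0933 to 0.163). Igf1 in wild-type LE fell in the same order as the stromal sum, whose part in it was not tested. In E-OEX GE against wild-type GE, Stc1 was higher (log2 difference 1.42, limma adjusted p = 0.00472) and Irs2 lower (-1.23, limma adjusted p = 0.0142) among 6 tested, where 23.5% of all genes were called; the Irs2 call was lost without wild-type GE replicate 1 or 3 (adjusted p = 0.113 and 0.0509) and on the deposited scale (adjusted p = 0.0869). Of 12 tested between U-OEx LE and E-OEX LE, where 15% of all genes were called, Irs2 was higher and Irs1 lower, and both calls were lost when single libraries were left out. The receptors were listed in U-OEx LE only: Igf1r, through which Igf2 signals, was at 2426 ± 340 and Igf2r, which clears Igf2, at 1948 ± 365. Dlk2, the relative of Dlk1, was at 2.44 ± 0.97 there.

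Of 10 genes listed for imprint maintenance, 2 were tested in wild type. Both were called higher in U-OEx LE against wild-type LE. There 56.9% of 5949 genes were called, 29.1% as higher, and a count of 2 says little of the list. Uhrf1, which brings the maintenance methyltransferase to DNA in dividing cells, rose in U-OEx LE against wild-type LE from 76.1 ± 18.6 to 1646 ± 296 scaled reads (log2 difference 4.41, limma adjusted p = 1.94e-05). Dnmt3b, a DNA methyltransferase, rose from 70.5 ± 15.6 to 200.4 ± 13.5 (log2 difference 1.49, limma adjusted p = 0.00515).

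The genes most like each member over the libraries were named by Pearson's r of log2 rescaled reads, as a description, since libraries of a group share their tissue. Over 15 libraries and 2357 genes, H19 was most like Apold1 (0.983), Robo4 (0.977) and Pdgfrb (0.970). Mest was most like Cldn5 (0.967), Cd93 (0.961) and Eng (0.959). Pdgfrb is in the pericyte marker list and Cldn5 in the endothelial list. Cdkn1c was most like Efhd1 (0.962), Nudt4 (0.944) and Ankrd29 (0.921), none of which is in a marker list. Igf2, over 12 libraries, was most like Ndst3 (0.938), Gimap1 (0.935) and Olfr78 (0.932). Over the 9 libraries that listed them, Plagl1 was most like Hs6st1 (0.994), Ntf5 (0.992) and Klk11 (0.992), and Phlda2 like Tmem38b (0.993), Cobll1 (0.981) and Rgl1 (0.974).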

How the data were processed

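The authors' deposited values are a signal per gene and library, read here as read counts divided by 1 factor per library. The aligner, counting tool and scaling are not given in the sources used here; the submitters' processing notes name GRCm38 (mm10). Dividing by each library's smallest step gave whole reads (within 0.01) for 100% of values. Groups and replicate numbers came from titles. Members and gene lists were chosen with earlier results of these data known. All members are named wherever listed; of other lists at most 4 called genes per comparison, by size, plus relatives and receptors.

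limma 3.58.1 (R 4.3.3, trend) was run on log2(value + 1) for genes with a mean of at least 1; fold changes on this scale understate low genes. Comparisons within a table and the interaction used deposited values. Comparisons between genotypes used the reads of genes listed for both, rescaled with TMM (edgeR 4.0.16) on the assumption that most of them are stable: 2933 for wild type with E-OEX, 6204 for wild type with U-OEx, and 4676 for both overexpressing sets. Alternatives were other pseudocounts, filters and scalings, edgeR, DESeq2 1.42.0, a replicate block and leaving out each library. The methods were also run on simulated data, with the same spread for all genes and few changed genes. That setting does not cover U-OEx LE against wild-type LE, where 56.9% of genes were called and the assumption behind TMM is in doubt. Replicates differed beyond sampling noise (chi-square 16.6 to 182 per degree of freedom). Bounds against 0 use 3 reads over the LE group and cover counting error on the LE side only.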

Additional observations from a re-analysis of the deposited data

Results flagged for a closer look

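The difference between GE and LE changed with genotype, by the interaction test in limma, for 3 imprinted genes. The genes tested had been selected for a GE-to-LE difference in both genotypes, so opposite directions bring a large interaction by selection. For Cdkn1c the interaction was 5.56 (SE 0.67, adjusted p = 0.000859), with GE below LE in wild type and above it in E-OEX. For Asb4 it was -3.42 (SE 0.81, adjusted p = 0.0166), with GE at 282 and 670.4 scaled reads and LE at 2.18 and 66.0 in wild type and E-OEX; the call was lost with a pseudocount of 0.1 (adjusted p = 0.0716) and without wild-type GE or E-OEX GE replicate 3 (adjusted p = 0.052 and 0.0511). For Slc22a3 it was 2.56 (SE 0.70, adjusted p = 0.0343), with wild-type LE at 0 in every library. That call was lost with a pseudocount of 0.1 (adjusted p = 0.504), DESeq2 (adjusted p = 0.5998), TMM rescaling (adjusted p = 0.133) and without any of 8 single libraries (adjusted p from 0.0545 to 0.0867), and the sign turned to -0.15 with edgeR (adjusted p = 0.78).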

How the results depend on the processing

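Of 421 alternatives over 29 results of single members, 395 kept direction and call, 12 lost the call, 2 gained it and 12 turned sign, all of the last on values that were not called. DESeq2 called 453 genes rather than 277 in E-OEX LE against wild-type LE and 501 rather than 315 in the interaction. On the deposited scale 1 member rather than 0 was called in E-OEX GE against wild-type GE, and with the replicate block 0 rather than 1 in U-OEx LE against E-OEX LE (Cdkn1c, adjusted p = 0.0592); the replicate block changed no other member's call. Same-numbered libraries deviated together with a correlation over 0.1 for all 3 numbers in no comparison (mean 0.120 at most, in GE between genotypes, where 5 of 6 libraries correlated best with their own number), so the numbers were not taken as pairs.

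Leaving out single libraries gave 56 to 322 genes in E-OEX LE against wild-type LE, 362 to 728 in E-OEX GE against wild-type GE, 179 to 449 in the interaction and 60 to 904 in U-OEx LE against E-OEX LE, and 0 to 1 members in the second and last of these. It also took uncalled values through 0. Mest ran from -0.63 to 0.12 and Irs2 from -0.97 to 0.77 in E-OEX LE against wild-type LE. H19 ran from -0.012 to 0.93 and Igf2 from -0.48 to 0.69 in E-OEX GE against wild-type GE. In the interaction, Igf2 ran from -0.094 to 1.07, Cdkn1a from -0.75 to 0.28, Irs2 from -1.74 to 0.087 and Igf1 from -0.022 to 2.14. H19 ran from -1.09 to 0.081 in U-OEx LE against wild-type LE and from -0.013 to 1.15 against E-OEX LE, where Phlda2 ran from -0.27 to 0.55. Quantile normalization turned Igf2 to -0.11 in GE between genotypes and -0.081 in the interaction, and Cdkn1a to 0.40 in the interaction. Irs2 in E-OEX LE against wild-type LE was -0.29 with edgeR and -0.28 with DESeq2, and Slc22a3 in the interaction -0.15 with edgeR. The causes were not tested. Without wild-type GE replicate 3, Igf2 fell under the filter and was not tested. Depth limits Igf2, H19 and Phlda2 in LE, which rest on a few reads.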
